A study of Mus musculus with 2 samples.

Results

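Cholesterol and fatty acid synthesis genes were examined in MOS-J, a mouse osteosarcoma cell line. The set was named by symbol and holds 35 genes: enzymes that build cholesterol, the regulators that sense it, and enzymes that make, desaturate and elongate fatty acids. Of these, 34 had a probe set annotated with their symbol alone, out of 18193 such genes on the array, and Acat2 is not analysed here. The DKK1 group is 1 array of MOS-J cells given a lentivirus with human DKK1, a secreted inhibitor of canonical Wnt signalling. The control group is 1 array of MOS-J cells given a control lentivirus. The comparison asks how the tumour cells differ when they carry human DKK1. The treatment protocol describes resistance-selected clones, a plasmid route, and later labelling of mitochondria with a red fluorescent protein followed by cell sorting. It is not stated in the sources used here which of these steps the 2 profiled cultures shared, nor whether either is a single clone.

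Cholesterol is assembled from acetyl-CoA through mevalonate, isoprenoid diphosphates, squalene and lanosterol. Fatty acids are built from the same acetyl-CoA by citrate cleavage, carboxylation and the fatty acid synthase, and are then desaturated and lengthened in the endoplasmic reticulum. Many genes of both branches are transcribed under SREBP factors, which leave the endoplasmic reticulum with their escort Scap when sterols are low and are held back by the Insig proteins when sterols are high.

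Each group has 1 array, so there is no test, no p-value and no replicate error. The number of arrays limits the precision, and a batch effect cannot be told apart from that of the group. Signals are linear MAS5 values, and all differences are log2(signal + 16.6) of DKK1 minus control, with 16.6, the lower quartile (25th percentile) of the signals, as pseudocount. A probe set counted as measured where its mean signal over both arrays reached 71.3, the median over all probe sets. A gene's difference averages those of its measured probe sets, and stands in parentheses after the signals below. Folds are taken from it, and the pseudocount makes them understate the change of dim genes. A gene was called higher or lower at a difference of at least 1 (2-fold) with all measured probe sets on the same side of 0. Where a signal lay below 71.3, a lower bound on the fold was formed by raising that signal to 71.3. Of the osteoblast lineage markers, 5 of the 7 with a probe set were measured and none was called. Their brightest probe sets sum to 47169 on the DKK1 array and 42551 on the control array, carried by Col1a2, Sparc and Col1a1. These sums hide opposite differences. Col1a2 read 24640 in DKK1 cells and 31456 in control cells. Sparc read 15921 in DKK1 cells and 8651 in control cells, and Col1a1 read 6263 and 2150. Ibsp and Dmp1 lay below the filter on both arrays.

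All 34 genes were measured, by 66 of their 81 probe sets. Of the 34, 8 were called higher in the DKK1 cells, 0 were called lower and 26 were not called. Among all 11058 measured genes 11.7% were called higher and 6.91% lower. The 8 genes were the mevalonate gene Hmgcs1, the isoprenoid gene Idi1, the sterol genes Cyp51 and Tm7sf2, the sterol sensor gene Insig1 and the desaturase genes Scd1, Fads1 and Fads2. The median difference of the 34 genes was 0.38, beside 0.10 over all measured genes, and it was −0.22, beside −0.52, when the arrays were scaled on the poly-A control RNAs. Their differences ran from −0.46 to 1.96, and 12 of them lay within 0.25 of 0. Over all measured genes the span from −0.25 to 0.25 ran from the 30th to the 59th percentile. The set held genes near 2-fold or more and genes with nearly equal signals on both arrays. Others belonged to neither, such as Ebp (−0.28), Msmo1 (0.42) and Acsl3 (0.62). At the level of probe sets, 22 of the 66 were at least 2-fold higher (33.3%), against 12.1% of all measured probe sets with 1 symbol. These are repeat readings of the same genes on the same 2 arrays, with 5 of the 22 from Hmgcs1 alone, and add no independent count. Of the 66, 6 had a control signal below the filter, among them all 3 of Fads2. They counted as measured only through the DKK1 array, so the share is a description alone.

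**Figure D1:**
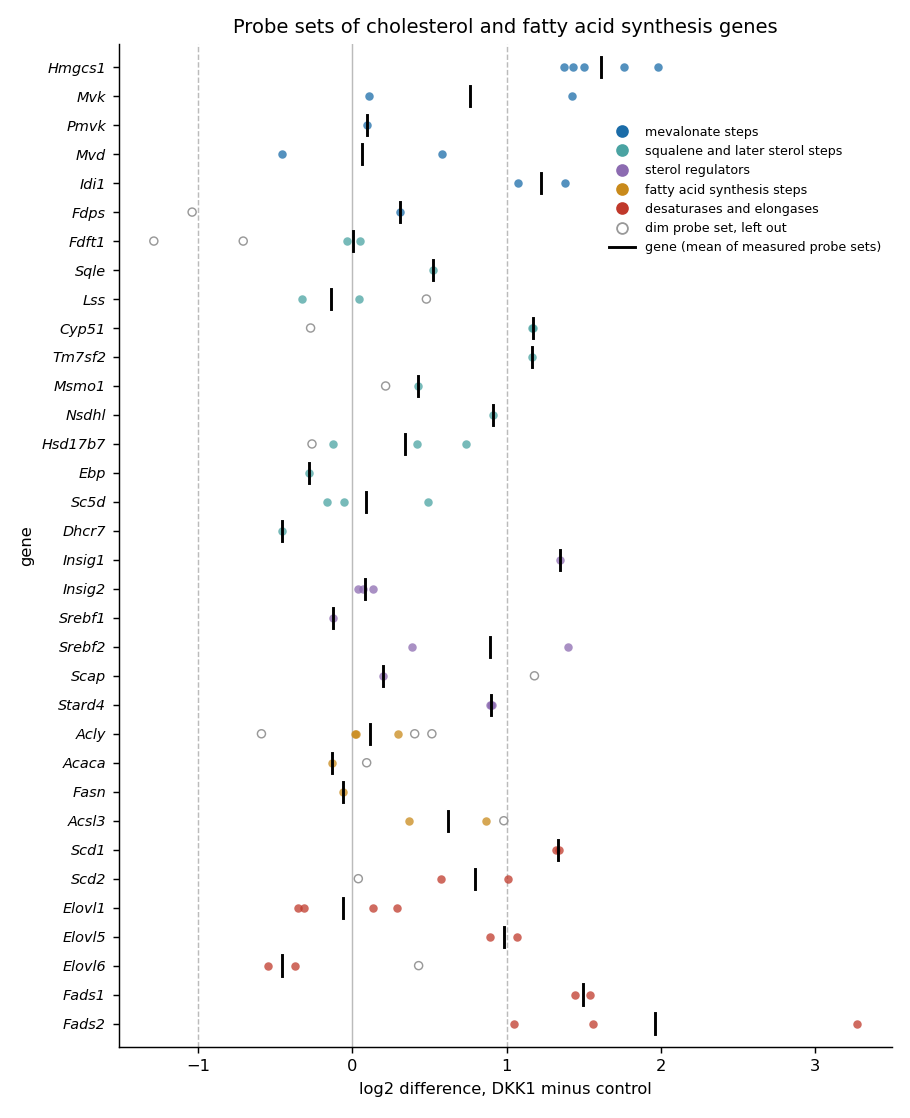
Log2 difference (DKK1 minus control, horizontal axis) of each probe set of the 34 genes, in pathway order from top to bottom. Filled points are measured probe sets coloured by step, open grey points are dim probe sets that were left out, black bars are gene means, and dashed lines mark 2-fold; Hmgcs1, with 5 probe sets between 1.37 and 1.98, stands near genes such as Pmvk at 0.094.

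Promoter sequences are shown for 4 genes with unlike differences between the arrays, so that the elements bound by sterol-responsive factors can be seen beside the values. They come from RefSeq on build GRCm38.p6, run 5′ to 3′ on the strand of the gene, and span 300 bases around the annotated start, most of them upstream. Capitals mark matches on either strand to CACCCCAC, the core of the classical sterol regulatory element, to CCAAT, the element of the cofactor NF-Y (read as ATTGG on the other strand), and to CACGTG, an E-box. In Fasn a CCAAT and an ATTGG overlap.

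Hmgcs1 (chr13:119690101-119690400, plus strand): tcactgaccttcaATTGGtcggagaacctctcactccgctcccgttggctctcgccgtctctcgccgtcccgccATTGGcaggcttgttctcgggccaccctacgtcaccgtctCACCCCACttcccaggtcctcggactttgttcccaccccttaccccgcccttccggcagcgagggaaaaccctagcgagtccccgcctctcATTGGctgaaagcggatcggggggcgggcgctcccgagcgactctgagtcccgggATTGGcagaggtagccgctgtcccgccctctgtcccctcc

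Insig1 (chr5:28071162-28071461, plus strand): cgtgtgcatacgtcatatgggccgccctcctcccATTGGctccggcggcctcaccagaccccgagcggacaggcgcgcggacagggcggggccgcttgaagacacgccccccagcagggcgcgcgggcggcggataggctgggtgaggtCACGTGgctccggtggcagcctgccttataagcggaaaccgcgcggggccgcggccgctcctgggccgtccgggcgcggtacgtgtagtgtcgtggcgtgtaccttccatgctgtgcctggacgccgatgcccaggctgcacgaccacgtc

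Fads2 (chr19:10101454-10101753, minus strand): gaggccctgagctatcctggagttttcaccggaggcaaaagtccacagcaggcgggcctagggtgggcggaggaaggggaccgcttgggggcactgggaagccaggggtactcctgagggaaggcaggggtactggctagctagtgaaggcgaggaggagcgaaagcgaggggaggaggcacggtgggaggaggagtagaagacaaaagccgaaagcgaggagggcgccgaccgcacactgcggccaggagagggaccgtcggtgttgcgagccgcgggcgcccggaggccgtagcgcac

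Fasn (chr11:120824498-120824797, minus strand): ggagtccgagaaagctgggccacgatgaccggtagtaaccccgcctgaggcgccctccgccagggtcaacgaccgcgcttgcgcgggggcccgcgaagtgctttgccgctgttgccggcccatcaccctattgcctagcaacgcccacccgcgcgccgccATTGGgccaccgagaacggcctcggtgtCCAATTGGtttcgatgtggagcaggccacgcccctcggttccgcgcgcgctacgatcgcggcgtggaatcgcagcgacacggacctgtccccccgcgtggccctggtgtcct

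The windows of 28 of the 35 listed genes were in the table, as 37 promoters because some genes have several starts. Hmgcs1 carried 1 sterol element core and 4 CCAAT matches. Insig1 carried 1 CCAAT and 1 E-box, Fasn carried 3 CCAAT matches, and the Fads2 window carried none of the 3 motifs. The sterol element core occurred in 2 of the 28 genes, Hmgcs1 and Acat2, or 5.41% of their promoters, against 2.87% of all 32851 promoters in the table. Of these 2 genes, only Hmgcs1 was measured. CCAAT occurred in 23 of the 28 genes, or 64.9% of their promoters, against 37.4% of all promoters. It was present in 5 of the 6 called genes with a window and in 18 of the 21 that were measured and not called. The E-box was found in 6 of the 28 genes, or 18.9% of their promoters, against 7.15% of all promoters. A match is a run of letters and says nothing of binding in these cells.

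The mevalonate steps carry acetyl-CoA units to farnesyl diphosphate. Of the 6 genes measured, 2 were called higher, with a median of 0.54 as deposited and −0.060 on the poly-A scale. Hmgcs1, the cytosolic synthase that makes HMG-CoA, had signals of 3412, 3852, 4045, 450.3 and 135 in DKK1 cells, against 1256, 1124, 1421, 164 and 21.9 in control cells for the same 5 probe sets. Every probe set was higher on the DKK1 array, by 1.37 to 1.98. The gene difference was 1.61 (SD 0.26 between 5 probe sets), a fold of 3.05, or at least 2.68 with the 1 dim control signal raised to the filter. It exceeded 95.3% of all measured genes. Idi1, which isomerises isopentenyl diphosphate, had signals of 759 and 755 in DKK1 cells, against 281 and 351 in control cells, a difference of 1.22 (SD 0.22, 2 probe sets) and a fold of 2.34.

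The kinases and the decarboxylase between these steps were not called. Mvk, mevalonate kinase, averaged 0.76, but its 2 probe sets gave 0.10 and 1.42, and the higher one had a control signal below the filter. Pmvk, phosphomevalonate kinase, read 363 in DKK1 cells and 339 in control cells (0.094). The probe sets of Mvd, the decarboxylase, went both ways, at −0.46 and 0.58. Fdps, farnesyl diphosphate synthase, had 2544 in DKK1 cells and 2052 in control cells (0.31). A dim probe set of Fdps, left out here, was lower by 1.04 on the log2 scale.

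From squalene onward 2 of 11 genes were called higher, with a median of 0.34 as deposited and −0.24 on the poly-A scale. Cyp51, the cytochrome P450 that demethylates lanosterol, had signals of 676 and 1002 in DKK1 cells, against 291 and 438 in control cells. Its 2 measured probe sets gave nearly the same difference, with a mean of 1.17 and an SD of 0.0066. Another probe set, near the filter, at 56.9 in DKK1 cells and 72.1 in control cells, went the other way, and with it included the mean was 0.69 and the call ended. Tm7sf2, a sterol reductase that acts after Cyp51, had 1 probe set, which read 256 in DKK1 cells and 105 in control cells (1.16). Its call ended with quantile normalization, with loess and with the larger pseudocount, at 0.89 in each.

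The other 9 genes of this stretch were not called and lay between −0.46 and 0.91. Nsdhl, which removes carbon groups from the sterol ring as a decarboxylating dehydrogenase, was the highest of them, with 1015 in DKK1 cells and 532 in control cells (0.91, 1 probe set). Sqle, squalene epoxidase and a rate-limiting step, had 1368 in DKK1 cells and 949 in control cells (0.52). Msmo1, the methylsterol monooxygenase, had 1059 in DKK1 cells and 785 in control cells (0.42). Hsd17b7, a sterol ketone reductase, averaged 0.34 over 3 probe sets that ran from −0.13 to 0.73.

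Fdft1, squalene synthase, was the member nearest to 0, with signals of 1669 and 485 in DKK1 cells, against 1708 and 469 in control cells (0.0069). Sc5d, the sterol desaturase, averaged 0.090 over 3 probe sets of both signs, and Lss, lanosterol synthase, averaged −0.14 over 2. Ebp, the sterol isomerase, had 1621 in DKK1 cells and 1972 in control cells (−0.28). Dhcr7, the reductase that completes cholesterol, had 297 in DKK1 cells and 413 in control cells (−0.46, 1 probe set). The steps at the end of the pathway were thus not among the called genes, and Ebp and Dhcr7 had lower signals on the DKK1 array.

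Of 6 regulators of sterol synthesis and transfer, 1 was called higher, with a median of 0.55 as deposited and −0.073 on the poly-A scale. Insig1, which holds the Scap and SREBP complex in the endoplasmic reticulum and is itself a sterol-regulated gene, had 2062 in DKK1 cells and 801 in control cells (1.35, 1 probe set), a fold of 2.54. Its relative Insig2 had 2788, 2512 and 1010 in DKK1 cells, against 2536, 2444 and 963 in control cells. The 3 Insig2 probe sets thus lay between 0.039 and 0.14, with a mean of 0.081. Srebf2, the SREBP factor most tied to cholesterol genes, averaged 0.89, and its 2 probe sets disagreed. Their signals were 439 and 447 in DKK1 cells, against 332 and 159.7 in control cells, or 0.39 and 1.40.

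Srebf1, the SREBP factor most tied to fatty acid genes, had 1147 in DKK1 cells and 1250 in control cells (−0.12, 1 probe set). Scap, the escort protein, had 1493 in DKK1 cells and 1296 in control cells (0.20). Stard4, a soluble sterol transfer protein, had signals of 138, 314 and 359 in DKK1 cells, against 66.4, 159 and 185 in control cells. Its 3 probe sets agreed closely, with a mean of 0.90 and an SD of 0.0073, below the threshold of 1.

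None of the 4 measured genes that make and activate fatty acids was called, with a median of 0.025. That median lay on the other side of 0 under 5 of the alternatives, at −0.60 on the poly-A scale and between −0.077 and −0.0046 under the other 4. Fasn, the fatty acid synthase, had 1616 in DKK1 cells and 1688 in control cells (−0.062). Acaca, acetyl-CoA carboxylase, had 596 in DKK1 cells and 655 in control cells (−0.13). Acly, which splits citrate to acetyl-CoA, averaged 0.11 over 3 probe sets between 0.020 and 0.30. The signals of the core synthesis enzymes were therefore close on both arrays. Acsl3, which activates long-chain fatty acids, averaged 0.62, from probe sets at 0.87 and 0.37.

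Of 7 desaturase and elongase genes, 3 were called higher, with a median of 0.98 as deposited and 0.34 on the poly-A scale. Fads2, the desaturase that opens the polyunsaturated pathway, had signals of 599.7, 147 and 185 in DKK1 cells, against 47.2, 62.5 and 51.9 in control cells. All 3 control signals lay below the filter, so its difference of 1.96 depends on the pseudocount, and the fold is given as at least 3.56. The 3 probe sets differed in size, from 1.05 to 3.27 (SD 1.16). Fads1, the desaturase that acts later in the same pathway, had 2255 and 419 in DKK1 cells, against 764 and 143 in control cells. Its probe sets agreed, with a mean of 1.49 (SD 0.068) and a fold of 2.82.

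Elovl5, the elongase that works between these 2 desaturation steps, had 5516 and 4820.4 in DKK1 cells, against 2619 and 2595 in control cells. Its mean of 0.98 (SD 0.13) fell just short of the threshold, with probe sets at 1.07 and 0.89, and it was called with quantile normalization (1.05) and with loess (1.09). On the poly-A scale it stood at 0.34. Scd1, which makes monounsaturated fatty acids, had 9249 and 801 in DKK1 cells, against 3697 and 306 in control cells, a mean of 1.33 (SD 0.016) and a fold of 2.51. Scd2, its close relative, had 20127 and 325 in DKK1 cells, against 13498 and 153 in control cells, and averaged 0.79 (0.58 and 1.01).

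The other elongases of the set, Elovl6 and Elovl1, were not called. Elovl6, which lengthens palmitate, had 306 and 863 in DKK1 cells, against 454 and 1120.2 in control cells, and its mean of −0.46 was the lowest of the 34 genes. Elovl1, an elongase of very long saturated chains, had 789, 202, 2405 and 2989 in DKK1 cells, against 717, 163, 3074 and 3715 in control cells. Its 4 probe sets went both ways, with a mean of −0.060 (SD 0.32).

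**Figure D2:**
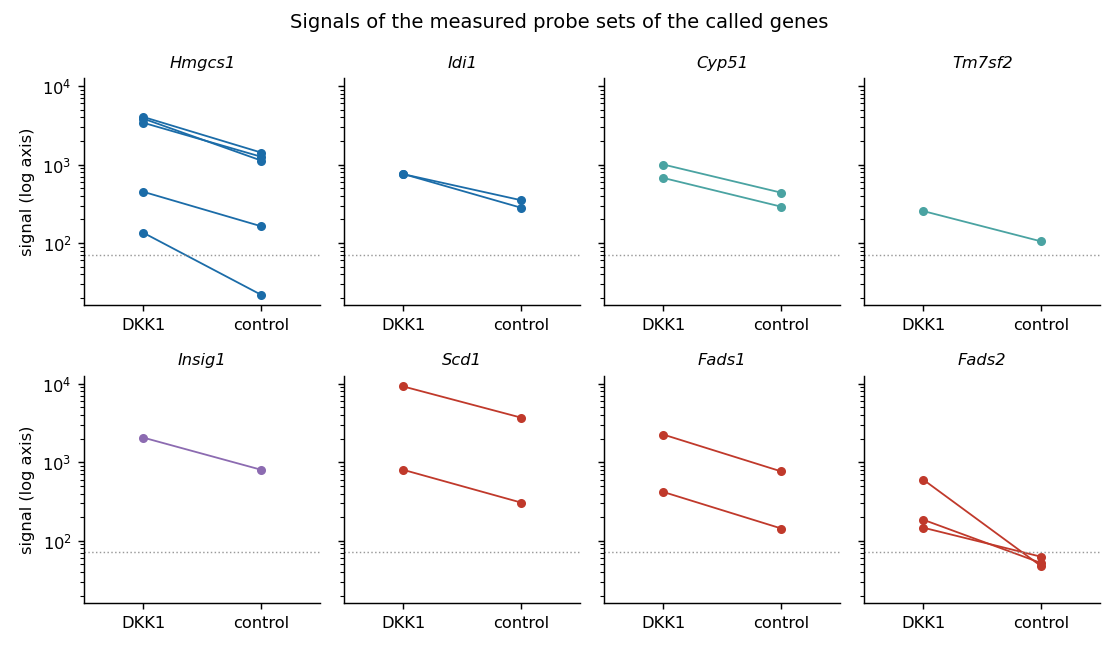
Signal (vertical log axis) of each measured probe set of the 8 genes called higher, with the DKK1 array at the left and the control array at the right of each panel. Lines join the values of 1 probe set, and the dotted line is the filter of 71.3; each line descends to the control array, and the 3 control signals of Fads2 lie under the filter.

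Sterol enzymes, fatty acid genes and regulators each held called genes. Called higher were 4 of 17 sterol enzymes (23.5%), 3 of 11 fatty acid genes (27.3%) and 1 of 6 regulators (16.7%), beside 11.7% of all measured genes. Their medians were 0.34, 0.62 and 0.55 as deposited, and −0.24, −0.0034 and −0.073 on the poly-A scale. Inside the fatty acid branch, the median of desaturases and elongases exceeded that of the synthesis steps by 0.95, with 0.73 to 1.15 over the 16 alternatives. Inside the sterol branch, the median of the mevalonate steps exceeded that of the later steps by 0.19, with 0.026 to 0.80 over the same alternatives. Under the stricter filter on dim probe sets the order of these gaps turned, with 0.73 in the fatty acid branch and 0.80 in the sterol branch. Scaling on control RNAs shifts all genes nearly alike and so cannot test such gaps. Of the desaturases and elongases, Scd1, Scd2, Fads1 and Fads2 lie on chromosome 19, where all measured genes had a median of 0.50. The others stood at −0.060 (Elovl1), 0.98 (Elovl5) and −0.46 (Elovl6). With each gene set against the median of its own chromosome, the gap in the fatty acid branch was 0.81. The part of chromosome 19 in this gap was not tested further.

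Probe sets of 1 gene gave a measure of technical agreement within these 2 arrays, which is not the spread between cultures. Among 21 genes read by 2 or more measured probe sets, 15 had all of them on the same side of 0 and 6 did not (Mvd, Fdft1, Lss, Hsd17b7, Sc5d and Elovl1). The same share over all measured genes is not given here, so this count is a description alone. The pooled SD between probe sets of these genes was 0.44, against 0.45 over all measured genes. All 8 called genes had every measured probe set at least 2-fold higher, and for Tm7sf2 and Insig1 this rests on 1 probe set. By this rule 8 of the 34 genes were higher and 0 lower, beside 9.76% and 5.75% of all measured genes. Most called genes share this trait, as 1079 of the 1293 genes called higher over all measured genes passed the rule too.

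The calls were unevenly placed in the genome. By the RefSeq table of GRCm38.p6, 5 of the 34 genes lie on chromosome 19, namely Tm7sf2, Fads1, Fads2, Scd1 and Scd2, and 4 of these 5 were called higher, with a median of 1.33. Of the 29 measured genes on other chromosomes, 4 were called (13.8%), with a median of 0.20, against 11.7% and 0.10 over all measured genes. Chromosome 19 as a whole stood apart on these arrays. Of its 405 measured genes 21.7% were called higher, with a median of 0.50, while the other 19 chromosomes with at least 100 measured genes had 6.48% to 15.8% called higher and medians of −0.23 to 0.28.

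Of 20 measured protein-coding neighbours within 5 genes, 1 was at least 2-fold higher, the vesicle traffic gene Rab3il1 (2.91), and 1 at least 2-fold lower, the synaptotagmin gene Syt7 (−2.37), and their median was 0.055. Fads3, a desaturase relative next to Fads2, averaged −0.014 over 2 probe sets that disagreed (SD 0.58), and Fen1, a nuclease gene next to Fads1, differed by 0.0025. Around Tm7sf2 the neighbours ran from −0.26 (Fau) to 0.86 (Vps51). Around Scd1 and Scd2 they ran from −0.17 (Bloc1s2) to 0.76 (Ndufb8). When each gene was set against the median of its own chromosome, an alternative chosen after the data had been seen, Fads2 (1.56) and Fads1 (1.09) were still called, while Scd1 (0.93) and Tm7sf2 (0.77) were not. The number of the 34 called was then 6, beside 11.4% of all measured genes higher and 6.5% lower. A cause of the shift of chromosome 19 was not tested.

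**Figure D3:**
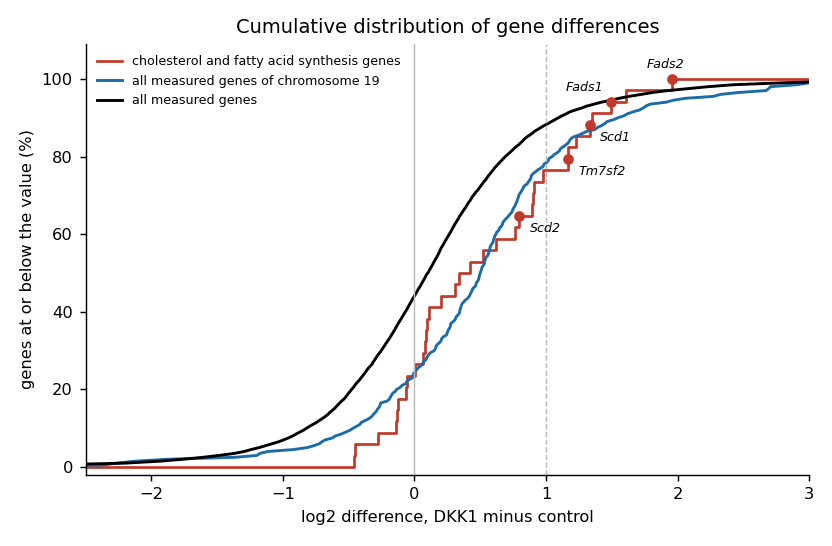
Share of genes (vertical axis, percent) at or below each log2 difference of DKK1 minus control (horizontal axis) for the 34 cholesterol and fatty acid synthesis genes, the 405 measured genes of chromosome 19 and all 11058 measured genes. Points mark the 5 genes of the set on chromosome 19, which all lie between 0.79 and 1.96; the dashed line marks 2-fold.

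Other genes around the pathway were examined as 7 lists, with 83 measured genes that are not in the set. Of these 8 were called higher (9.64%) and 6 lower (7.23%), with a median of 0.067, all close to the values over all measured genes. Of 13 measured genes for SREBP cleavage and sterol-regulated degradation, 1 was called higher and 0 lower, with a median of −0.24. The call was that of Mbtps1, the protease that makes the initial cut in SREBP (1.13), whose 2 probe sets differed by an SD of 1.27. With dim signals raised to the filter, Mbtps1 was at least 1.44-fold higher and the call ended. Its brightest probe set gave 0.23, and on the poly-A scale it stood at −0.40. None of 9 isoprenoid branch genes, for prenylation, dolichol and ubiquinone, was called, with a median of −0.094.

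Of 8 measured genes for acetyl-CoA and NADPH supply, 1 was higher and 1 lower, with a median of −0.053. Idh1, the cytosolic isocitrate dehydrogenase, was higher (1.38, SD 0.66) and Pgd, of the pentose phosphate pathway, was lower (−1.27, SD 0.49 between 4 probe sets). Both enzymes make NADPH. Neither call held under every setting, with Idh1 at 0.74 on the poly-A scale and Pgd at −0.90 on the hybridisation control scale. Of 15 other genes of fatty acid synthesis, elongation and activation, 1 was higher and 2 were lower, with a median of −0.049. The elongation cycle itself was mixed, with the reductase Tecr higher (1.02), the ketoreductase Hsd17b12 lower (−1.11) and the elongase Elovl4 lower (−1.50, at least 3.12-fold). The calls of Tecr (0.92 with median centring) and Hsd17b12 (−0.74 on the hybridisation control scale) depended on the scaling.

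Of 11 genes for sterol transport and esterification, 1 was higher and 1 lower, with a median of 0.20. Abca1, the cholesterol exporter, was higher by 2.15 on 1 measured probe set, with 1412 in DKK1 cells and 305 in control cells. With its 2 dim probe sets included its mean was 0.41 and the call ended. Npc1, which moves cholesterol out of lysosomes, was lower, with 427 in DKK1 cells and 874 in control cells (−1.01), and its call ended with the larger pseudocount (−0.92). In the list of oxysterol and liver X receptor genes 1 of 7 was called lower and 0 higher, with a median of 0.42. That gene was Ch25h, the hydroxylase that makes an oxysterol which acts on Insig to hold back SREBP, with signals of 17.5 in DKK1 cells and 1573 in control cells, at least 22.1-fold lower.

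Fatty acid oxidation genes had 4 of 20 called higher and 1 lower, with a median of 0.40 as deposited and −0.23 on the poly-A scale. These are shares of 20% and 5%, beside 11.7% and 6.91% of all measured genes, and on the poly-A scale 0 were called higher and 3 lower. Cpt1a, which admits fatty acids to mitochondria, was higher by 1.62 (SD 0.35, 3 probe sets), and Acadm, the medium-chain dehydrogenase, by 1.62 on 1 probe set. On the poly-A scale these stood at 0.99 and 0.98, just under the threshold. Acot2, a mitochondrial thioesterase, was lower (−1.78, SD 1.20 between 2 probe sets). The sign of each of the 7 list medians depended on the scaling. The 4 negative ones were above 0 on the hybridisation control scale, and the 3 positive ones were below 0 on the poly-A scale.

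**Figure D4:**
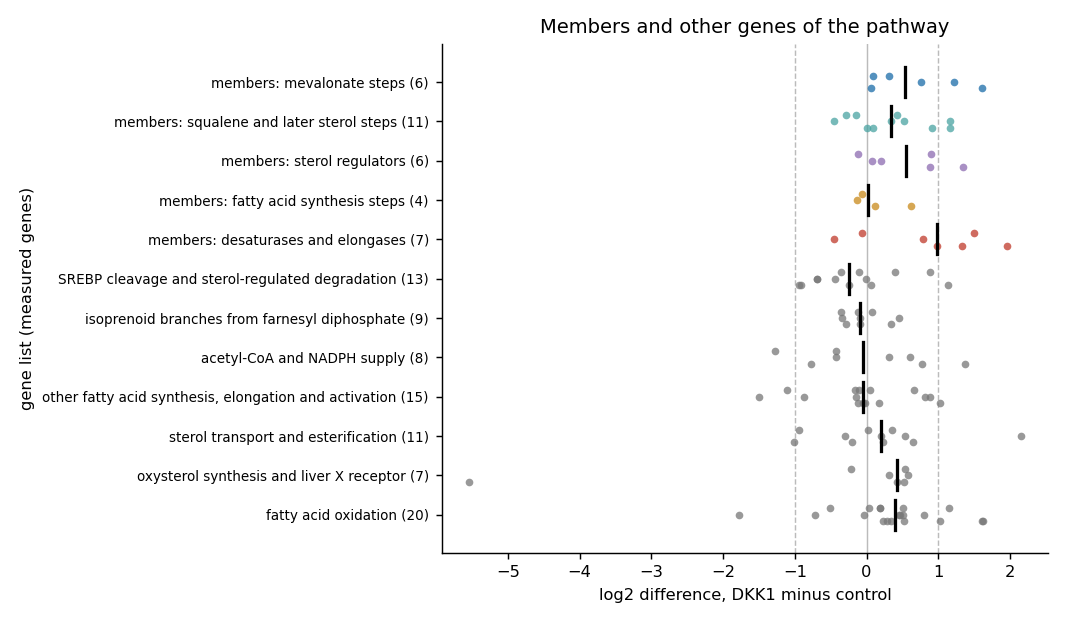
Log2 difference (DKK1 minus control, horizontal axis) of each measured gene in the 5 steps of the set (coloured) and in the 7 further lists (grey), with the number of measured genes in parentheses. Black bars are medians and dashed lines mark 2-fold; the desaturases and elongases have the highest median, 0.98, and Ch25h lies alone at −5.54.

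Markers of other cells that handle lipids were set beside these values. Of 9 adipocyte markers with a probe set 3 were measured. All 3 were called higher in the DKK1 cells, beside 11.7% of all measured genes. These were Plin4, a lipid droplet protein gene (3.09), Pparg, the nuclear receptor of fat cell formation (2.47), and the fatty acid carrier gene Fabp4 (1.31). Fabp4 was measured by 2 of its 4 probe sets. How these calls depend on the scaling is not given here. The brightest probe sets of the 9 markers summed to 3287 on the DKK1 array and 908 on the control array. The defining markers Adipoq, with 7.89 in DKK1 cells and 0.796 in control cells, and Lep, with 6.14 in DKK1 cells and 3.11 in control cells, were near the bottom of the signal range, and 5 of the 9 lay below the filter on both arrays. Cebpa, a regulator of fat cell formation, had 116 in DKK1 cells and 9.62 in control cells, above the filter on the DKK1 array alone, and its mean did not reach the filter. The part of the adipocyte-associated genes in the desaturase values was not tested.

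Of 10 macrophage and leukocyte markers 5 were measured and 4 lay below the filter on both arrays, with sums of 1185 on the DKK1 array and 852 on the control array. Lyz2 was called higher (2.29, at least 1.91-fold) and Laptm5 lower (−1.10, at least 1.59-fold), while Cd14, a monocyte surface gene and the brightest of the list, had 521 in DKK1 cells and 370.5 in control cells (0.47). The pan-leukocyte gene Ptprc had 4.24 in DKK1 cells and 11.7 in control cells. None of 4 hepatocyte markers with a probe set was measured, with sums of 154 on the DKK1 array and 88.7 on the control array.

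How many of the 34 genes were called depended on the scaling between the arrays. The hybridisation controls, added after labelling, had a median log2 ratio of −0.37, and scaling on them raised the count to 14 higher and 0 lower, beside 21.6% and 3.45% of all measured genes. The poly-A controls, which pass through labelling, had a median log2 ratio of 0.64. Scaling on them left 1 gene called higher, Fads2 (1.41), and 2 called lower, Dhcr7 (−1.07) and Elovl6 (−1.08), beside 4.27% of all measured genes higher and 24.1% lower. Of all calls over the measured genes, 62.9% were higher as deposited, 86.2% on the hybridisation control scale, 15.1% on the poly-A scale, 49.8% with quantile normalization, 51.4% with loess and 53.6% with median centring. On the poly-A scale Hmgcs1 stood at 0.89 and Fads1 at 0.88. With quantile normalization, loess and median centring 8 of the 34 genes were called higher in each, beside 8.76%, 9.12% and 9.82% of all measured genes, and 0 lower, beside 8.83%, 8.62% and 8.51%. Under quantile normalization and loess Elovl5 was among the 8 in place of Tm7sf2.

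Other call rules were also applied on the deposited scale. The count of genes called higher was 7 with a pseudocount as large as the filter (8.2% of all measured genes higher, 5.46% lower) and 7 with no filter on dim probe sets (9.5% higher, 5.63% lower). It was 9, with Elovl5 added, with the brightest probe set of each gene (12.0% higher, 8.34% lower) and without the x, s and a probe sets, which can match several transcripts (12.0% higher, 6.79% lower). None of the 34 was called lower under these 4 rules. At a threshold of 1.5-fold 15 of the 34 genes were called higher and 0 lower, beside 23.6% and 15.6% of all measured genes.

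**Figure D5:**
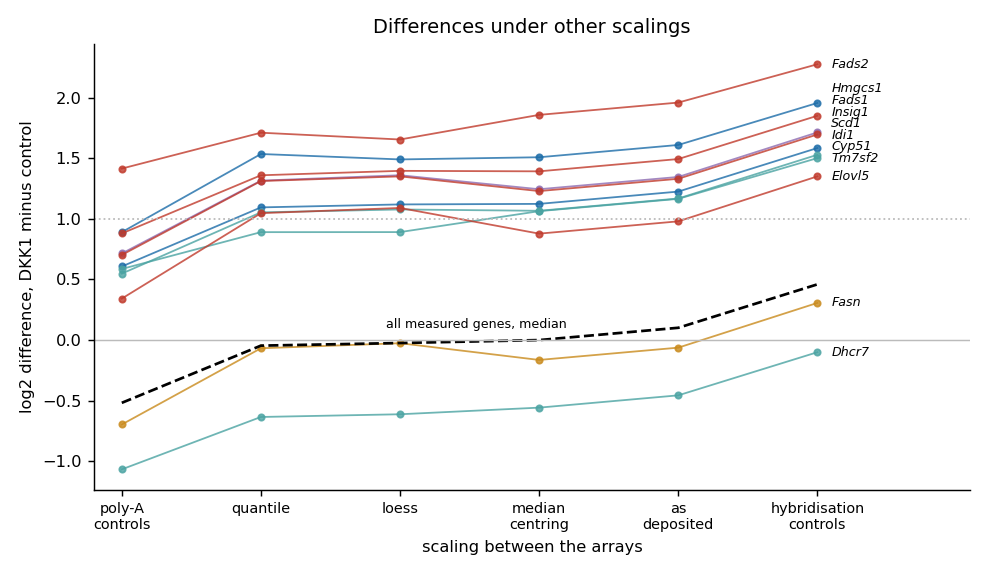
Log2 difference (DKK1 minus control, vertical axis) of the 8 called genes and of Elovl5, Fasn and Dhcr7 under 6 scalings of the arrays (horizontal axis), with the median of all measured genes as a dashed line and 2-fold as a dotted line. The lines move with the median of all genes, which runs from −0.52 with the poly-A controls to 0.46 with the hybridisation controls.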

How the data were processed

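Total RNA (500 ng) of 2 MOS-J cultures was labelled with biotin and hybridised to 1 Affymetrix array each, per the labels' protocols. The authors deposited 1 linear signal intensity per probe set, and the submitters' processing notes name MAS5 as the method (version not stated). With 2% of values trimmed at each end, both arrays averaged 500, so a shift shared by all genes cannot be seen.

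Probe sets were named through the platform annotation (34945 with 1 symbol, 932 with several, 64 control probe sets left out). Differences, the filter of 71.3 and calls were computed in Python 3.11.15 with pandas 2.3.3, numpy 2.4.6 and statsmodels 0.14.6 (loess span 0.3), over all probe sets, and the code was tested on simulated data. The alternatives changed the pseudocount, filter, scaling, probe set summary or call rule. A median counted as moved when it shifted by more than 0.45, the pooled SD between probe sets.

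The genes, lists and rules were chosen with earlier results of these data known. All genes of the set are named, and of each further list up to 3 called genes with the largest differences, plus Ch25h. Rab3il1, Syt7, Fads3, Fen1, Fau, Vps51, Bloc1s2, Ndufb8 and the uncalled markers were named after their values were seen.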

Additional observations from a re-analysis of the deposited data

How the results depend on the processing

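No paired analysis was possible because each group has 1 array, and for the same reason no replicate could be left out. Over 16 alternatives, 18 summary results gave 288 values. Of these, 258 were within 1.5 times the reported value for a count, or had the same sign and a shift under 0.45 for a median or a difference of medians. That total includes medians under rules that change only the call, which cannot move. It also includes differences of medians, which median centring leaves unchanged and scaling on control RNAs barely shifts. Counts of 0 that stayed at 0 are in it too. The total is thus a description and does not measure how firm each result is. The cause of the other shifts was not tested beyond what each alternative changes by its construction.

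Scaling on the poly-A controls moved the medians to −0.22 for the 34 genes, −0.24 for sterol enzymes, −0.0034 for fatty acid genes, −0.073 for regulators and −0.57 for pathway genes outside the set. Calls on that scale were 1 higher and 2 lower of the 34 genes, 0 higher and 1 lower of sterol enzymes, 1 higher and 1 lower of fatty acid genes, 0 higher of regulators, and 1 higher and 19 lower outside the set. Of all measured genes, 4.27% were called higher and 24.1% lower on that scale. Step medians on that scale were −0.060 for mevalonate, −0.24 for later sterol and −0.60 for fatty acid synthesis steps, and list medians were −0.43 for sterol transport, −0.20 for oxysterols and −0.23 for fatty acid oxidation. Mbtps1 stood at −0.40.

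Scaling on the hybridisation controls called 14 of the 34 genes higher, 5 fatty acid genes, 3 regulators, and 14 higher and 3 lower outside the set. Of all measured genes it called 21.6% higher and 3.45% lower. It put the medians of SREBP cleavage at 0.12, isoprenoid branches at 0.25, acetyl-CoA and NADPH supply at 0.31 and other fatty acid synthesis at 0.33. A threshold of 1.5-fold called 15 of the 34 genes, 6 fatty acid genes and 3 regulators higher, and 16 higher and 14 lower outside the set. Of all measured genes, 23.6% were called higher and 15.6% lower at that threshold.

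Median centring gave −0.034 for the pathway genes outside the set and −0.077 for the fatty acid synthesis steps, whose median was −0.021 with the brightest probe set and with the median of probe sets alike. Chromosome centring, chosen after seeing the data, gave −0.0046 for these steps, 0.012 for acetyl-CoA and NADPH supply and −0.10 for sterol transport. Calls higher outside the set numbered 5 with the larger pseudocount, with the brightest probe set and without the x, s and a probe sets, and 4 when every probe set had to be 2-fold. Of all measured genes, 8.2%, 12.0%, 12.0% and 9.76% were called higher under these rules, in that order. The stricter filter put the mevalonate steps 0.80 above the later sterol steps.

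Of the 8 called genes, Fads2 kept its call under all 15 alternatives that gave it a value, and Hmgcs1, Idi1, Insig1 and Fads1 lost it with the poly-A controls alone. Signal over background limits Fads2, whose control signals were all below the filter. Fads2 reached the filter only through its DKK1 signals, and the stricter filter gave it no value. Its kept calls therefore do not rank it above the other genes.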
